A study of Mus musculus with 17 samples.

Results

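Germline and meiosis genes were followed in mouse embryonic stem cells that left a naive culture medium. They were taken from a list of 38 gene symbols chosen for their roles in germ cells, and all 38 matched an Ensembl gene of GENCODE M21 in the count files. Of these, 37 had 10 or more counts in some library and are described here, out of 47729 genes in the files. Spo11, which makes the DNA breaks that start meiotic recombination, stayed below that limit in every library.

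The cells were grown without serum, always with LIF, and polyadenylated RNA was sequenced. LFAI added FGF2, Activin A and the Wnt secretion blocker IWP2, which moves cells toward primed pluripotency, and cells were taken after 4 days or after 35 h. LIM added IWP2 and the MEK inhibitor PD325901, and L2i added PD325901 and the GSK3 inhibitor CHIR99021. All 4 groups were made once from the R1 line and once from the CGR8 line (n = 2 libraries a group), both mouse stem cell lines, on gelatin with basement membrane extract, and these 8 libraries are called the 4-group set. A separate R1 experiment on gelatin with fetal calf serum went from L2i (day 0) into LIM or LFAI and was sampled daily to day 4, with 1 library per point, all at passage 32 after 5 (day 0), 4 (days 1 to 3) or 3 (day 4) passages in 2i. Time in LIM differs between the sets: the 4-group LIM cells had been in that medium for 4 (R1) and 6 (CGR8) passages, the time-course cells for days. The passages spent in 2i before sampling also differed: 3 (R1) and 9 (CGR8) for LFAI at 4 days, 9 and 7 at 35 h, 5 and 5 for LIM, and 10 and 8 for L2i. The R1 cells of LFAI at 4 days were at passage 26, and the other 4-group cells were at passage 30 to 34.

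Most listed genes act in cells that make eggs or sperm. In the embryo and in most somatic cells their promoters are silenced by DNA methylation and by repressor complexes such as PRC1.6, which carries MGA, MAX and E2F6. The list covers RNA-binding proteins, Tudor-domain proteins of germ granules, the PIWI proteins and their piRNA partners, the chromosome axis and cohesin, the synaptonemal complex that joins homologous chromosomes, and recombination. Naive stem cells, whose DNA is low in methylation, are known to transcribe part of this program.

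The 4-group libraries held 15135012 to 22593805 counts in genes and the time-course libraries 12889029 to 13667302. The time-course library labelled LFAI day 1 went against its label. A pair of feedback genes of FGF and ERK signalling, looked at after the values were seen, stood at 9.23 CPM (Dusp6) and 2.86 CPM (Spry4) there, against 9.90 and 2.22 CPM in LIM on day 1 and 78.3 and 85.8 CPM in LFAI on day 2. Over 15703 genes its log2 CPM correlated at 0.990 with LIM day 1 and at 0.941 with LFAI day 2. It is therefore called the library labelled LFAI day 1. The tally of the day on which each gene was highest in LFAI includes it, and no other LFAI result rests on it. Pou5f1, the pluripotency factor OCT4, was at 1190 to 1926 CPM in all 17 libraries.

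The list split at 4 days of LFAI. Between LFAI at 4 days and L2i, 20 of the 36 genes that could be tested fell and 5 rose (edgeR quasi-likelihood test, adjusted p under 0.05 over 15525 genes). Of all tested genes, 23.3% fell and 21.5% rose. The median log2 fold of the 36 genes was -2.17, against -0.0012 for all tested genes, and it was the same with Tdrd9, which had no count at 4 days, set at its bound. Several low genes passed the filter on low counts only through the groups where they were high, so these counts describe the genes and support no statement about the list. Their summed level was 196 (R1) and 262 (CGR8) CPM in LFAI at 4 days, against 864 and 840 CPM in L2i. In bulk RNA, fewer expressing cells and less RNA per cell cannot be told apart.

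**Figure D1:**
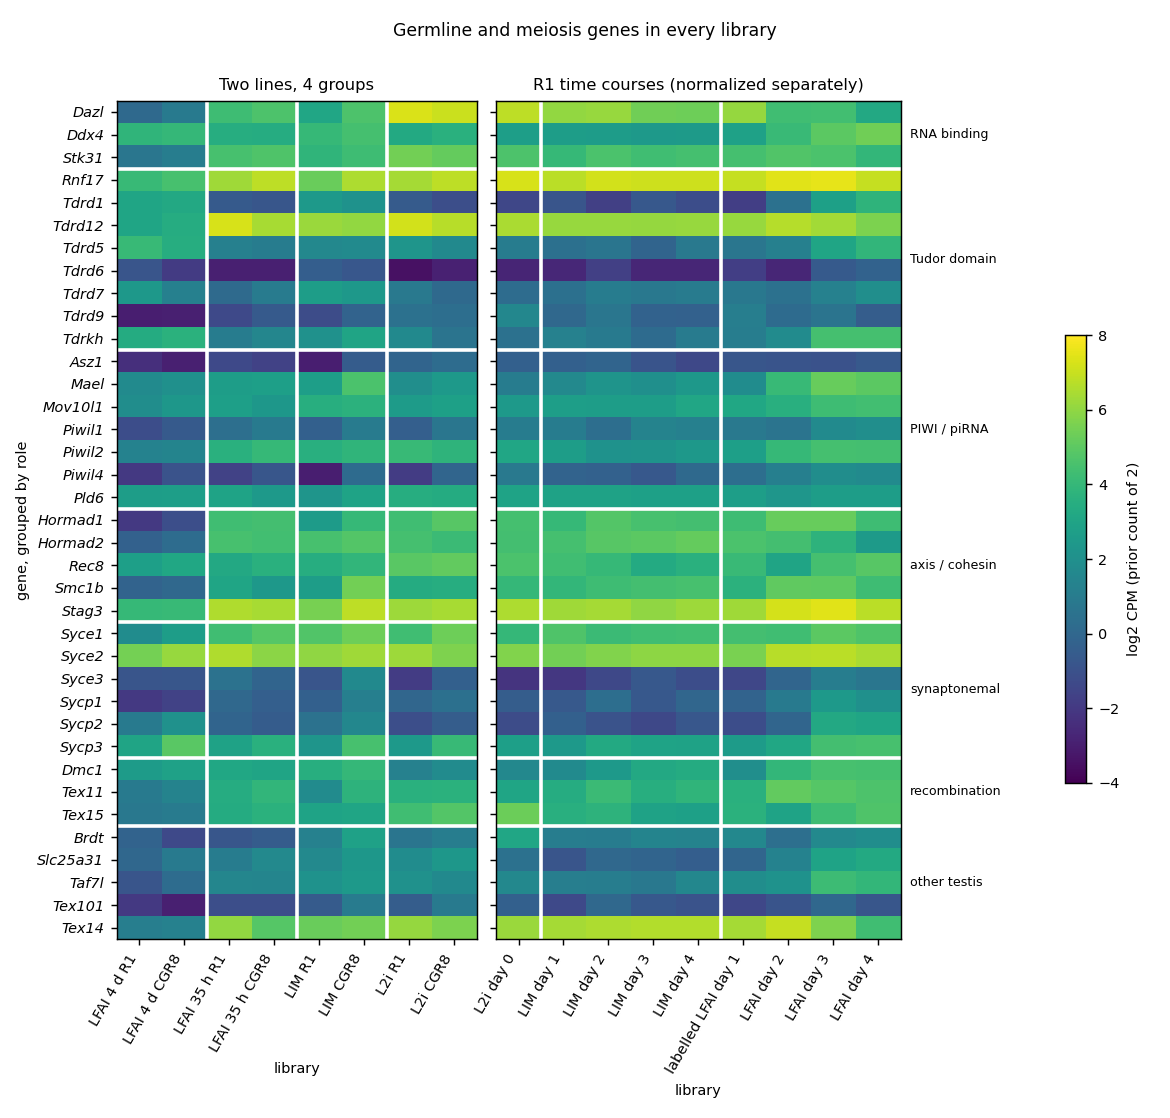
Heat map of log2 CPM (prior count of 2) of 37 germline and meiosis genes, in rows grouped by role. Columns on the left are the 8 libraries of the 4-group set and on the right the 9 R1 time-course libraries, normalized separately. Dazl is dark in LFAI at 4 days (0.944 and 1.76 CPM) and bright in L2i (158 and 131 CPM), while Tdrd1 is brighter in LFAI at 4 days (8.24 and 9.28 CPM) than in L2i (0.598 and 0.332 CPM).

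Among the RNA-binding genes, Dazl, a translation regulator that germ cells need, had 0.944 (R1) and 1.76 (CGR8) CPM in LFAI at 4 days and 19.1 and 24.7 CPM at 35 h. It had 8.45 and 24.8 CPM in LIM, and 158 and 131 CPM in L2i. Every library outside L2i was thus below both L2i libraries, and Dazl fell 107-fold between LFAI at 4 days and L2i (log2 fold -6.74 ± 0.56 SE, adjusted p = 4.09e-05). Stk31, a Tudor-domain protein with a kinase fold found in testis, had 1.51 and 2.03 CPM at 4 days, 23.0 and 25.7 CPM at 35 h, 14.2 and 19.3 CPM in LIM and 42.8 and 35.2 CPM in L2i. It fell 22.0-fold (log2 fold -4.46 ± 0.27 SE, adjusted p = 1.1e-05). Ddx4, the VASA helicase of germ granules, had 14.2 and 15.7 CPM at 4 days, 10.9 and 10.8 CPM at 35 h, 16.2 and 22.1 CPM in LIM and 9.61 and 12.0 CPM in L2i. It was present in every library and was not called between LFAI at 4 days and L2i (adjusted p = 0.133).

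All 5 axis and cohesin genes fell at 4 days against L2i, where 23.3% of all tested genes fell. Hormad1, which marks unpaired chromosome axes in meiosis, had 0.126 and 0.327 CPM in LFAI at 4 days, 19.9 and 21.5 CPM at 35 h, 5.95 and 16.3 CPM in LIM and 19.7 and 29.5 CPM in L2i. At 35 h it was within the L2i range, and it fell 106-fold by 4 days against L2i (log2 fold -6.72 ± 0.65 SE, adjusted p = 8.79e-05). Its relative Hormad2 had 0.692 and 1.05 CPM at 4 days, 22.5 and 20.3 CPM at 35 h, 23.0 and 27.8 CPM in LIM and 21.8 and 18.1 CPM in L2i. Hormad2 was at 18.1 to 27.8 CPM in the other 3 groups and fell 22.9-fold (log2 fold -4.52 ± 0.28 SE, adjusted p = 1.21e-05). Stag3, a meiotic cohesin subunit, had 16.5 and 17.1 CPM at 4 days, 95.9 and 86.7 CPM at 35 h, 46.5 and 111 CPM in LIM and 75.1 and 87.3 CPM in L2i. Both 4-day libraries were below all 6 others (log2 fold -2.27 ± 0.35 SE against L2i, adjusted p = 0.000927). Rec8, the meiotic cohesin kleisin, had 6.73 and 8.82 CPM at 4 days, 9.46 and 12.1 CPM at 35 h, 10.9 and 15.0 CPM in LIM and 30.4 and 35.1 CPM in L2i. Unlike Stag3 it was already low at 35 h, and it fell 4.20-fold by 4 days against L2i (adjusted p = 0.000312). Smc1b, the meiotic SMC subunit of cohesin, had 0.755 and 0.915 CPM at 4 days, 8.15 and 5.13 CPM at 35 h, 6.26 and 43.6 CPM in LIM and 10.3 and 11.0 CPM in L2i. Its lines differed most in LIM, and it fell 12.7-fold at 4 days against L2i (adjusted p = 0.00757).

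The Tudor-domain genes went both ways. Tdrd12, a piRNA helicase known from mice, had 8.24 and 10.7 CPM in LFAI at 4 days, 152 and 86.4 CPM at 35 h, 73.0 and 66.3 CPM in LIM and 145 and 106 CPM in L2i. It fell 13.3-fold (log2 fold -3.73 ± 0.30 SE, adjusted p = 3.68e-05). Rnf17, a RING and Tudor protein of male germ cells, had 16.8 and 22.3 CPM at 4 days, 77.3 and 112 CPM at 35 h, 37.8 and 93.0 CPM in LIM and 84.5 and 112 CPM in L2i (log2 fold -2.33 ± 0.40 SE, adjusted p = 0.00175). Both genes were among the 5 highest of the list in CPM in L2i and stayed detectable at 4 days. Tdrd9, a piRNA helicase, had no count in either library at 4 days, 0.261 and 0.519 CPM at 35 h, 0.313 and 0.773 CPM in LIM and 1.29 and 1.13 CPM in L2i. It was at least 12.7-fold lower at 4 days than in L2i, taking 3 counts over both libraries as the floor (adjusted p = 0.0036).

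Tdrd1, Tdrd5 and Tdrkh rose at 4 days. Tdrd1, which binds PIWI proteins in the germ granule, had 8.24 and 9.28 CPM in LFAI at 4 days, 0.522 and 0.455 CPM at 35 h, 5.26 and 4.28 CPM in LIM and 0.598 and 0.332 CPM in L2i. At 35 h it was within the L2i range, and it rose 18.1-fold by 4 days (log2 fold 4.18 ± 0.44 SE, adjusted p = 0.000138). Tdrd5, needed for retrotransposon silencing in the mouse male germline, had 16.9 and 11.2 CPM at 4 days, 2.22 and 1.95 CPM at 35 h, 2.88 and 3.27 CPM in LIM and 4.73 and 3.05 CPM in L2i (log2 fold 1.84 ± 0.36 SE, adjusted p = 0.00338). Tdrkh, a mitochondrial partner of PIWI proteins, had 10.2 and 12.7 CPM at 4 days, 1.96 and 2.73 CPM at 35 h, 4.13 and 7.91 CPM in LIM and 3.17 and 1.39 CPM in L2i (log2 fold 2.30 ± 0.48 SE, adjusted p = 0.00497). In all 3 genes both 4-day libraries were above all other 4-group libraries. Tdrd7, a further granule protein, had 5.16 and 2.22 CPM at 4 days, 0.978 and 1.88 CPM at 35 h, 6.26 and 5.23 CPM in LIM and 1.70 and 0.930 CPM in L2i. At 4 days it missed the threshold against L2i (adjusted p = 0.0593), and a fit blocked on line put it past it (log2 fold 1.45, adjusted p = 0.0497). Tdrd6 was too low to test, with at most 0.626 CPM in any 4-group library.

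**Figure D2:**
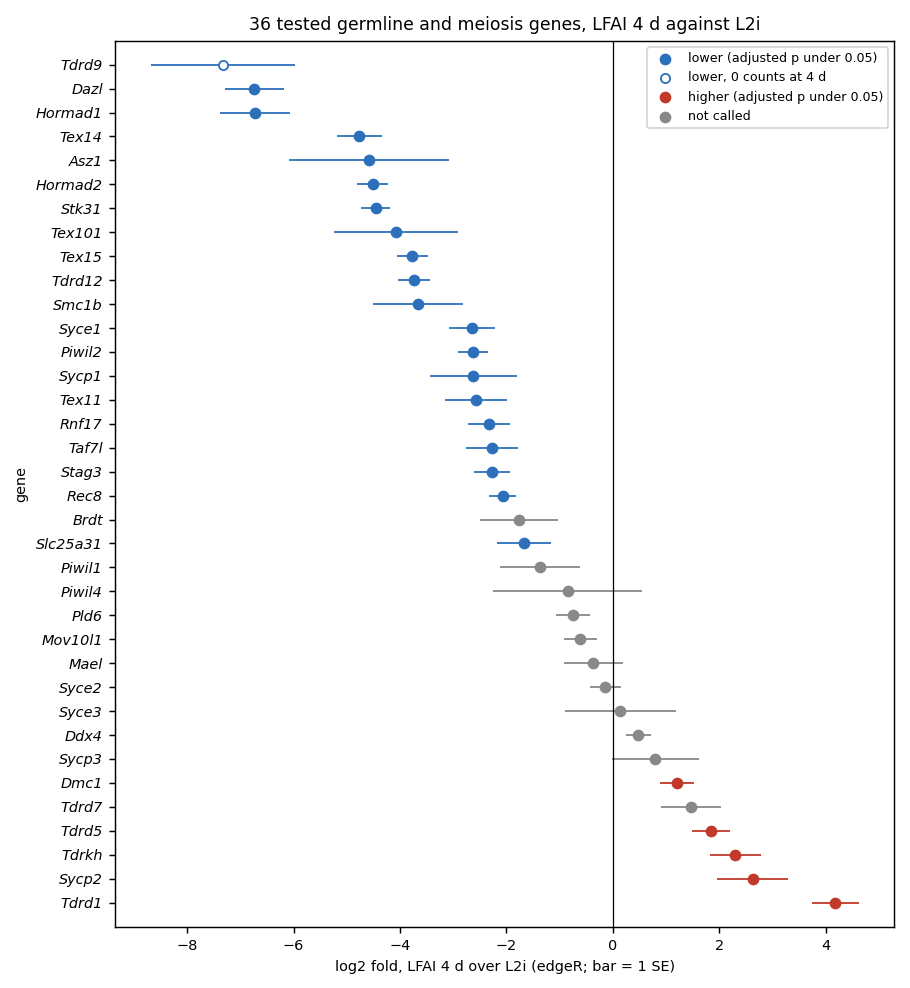
Log2 fold between LFAI at 4 days and L2i for the 36 tested genes (points, bars of 1 SE), sorted by fold; blue and red points passed the test and grey points did not. The open point, Tdrd9, had no count at 4 days, so its fitted fold is no bound; Tdrd1 stands at the other end with 4.18.

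In the PIWI and piRNA group 2 of 7 genes fell and none rose between LFAI at 4 days and L2i. Over all tested genes 23.3% fell and 21.5% rose. Piwil2, a PIWI protein of fetal and adult male germ cells, had 2.39 and 2.55 CPM at 4 days, 12.3 and 16.6 CPM at 35 h, 11.6 and 14.3 CPM in LIM and 16.8 and 13.8 CPM in L2i. It fell 6.19-fold (log2 fold -2.63 ± 0.28 SE, adjusted p = 0.000136). Asz1, a piRNA factor at mitochondria, fell by the test (adjusted p = 0.0348), but on 1 count at 4 days against 34 in L2i, a ratio of 28.8 with a 95% counting interval of 4.83 to 1171. Its CPM was 0.0629 and 0 at 4 days, 0.261 and 0.195 at 35 h, 0 and 0.594 in LIM and 0.827 and 1.06 in L2i. Pld6, the nuclease-like phospholipase that shapes piRNA ends, had 6.29 and 6.47 CPM at 4 days, 7.63 and 5.45 CPM at 35 h, 4.69 and 7.61 CPM in LIM and 11.2 and 10.3 CPM in L2i (adjusted p = 0.0889). Piwil1, Piwil4 and Pld6 were called in none of the 6 comparisons. A fit blocked on line called Piwil1 lower at 4 days than at 35 h (log2 fold -1.84, adjusted p = 0.041).

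Of the synaptonemal genes Sycp1 and Syce1 fell, Sycp2 rose and 3 were not called at 4 days against L2i. The shares over all tested genes were 23.3% lower and 21.5% higher. Syce1, of the central element, had 3.46 and 6.21 CPM at 4 days, 19.9 and 28.8 CPM at 35 h, 26.3 and 40.8 CPM in LIM and 20.1 and 40.8 CPM in L2i (log2 fold -2.65 ± 0.43 SE, adjusted p = 0.00133). Syce2, also of the central element, had 45.3 and 69.9 CPM at 4 days, 94.1 and 60.8 CPM at 35 h, 64.7 and 78.5 CPM in LIM and 76.3 and 50.9 CPM in L2i. The levels of Syce2 overlapped among all 4 groups, whereas both 4-day libraries of Syce1 were below all others (log2 fold of Syce2 -0.14 ± 0.29 SE, adjusted p = 0.716). Sycp2, of the axial element, had 1.83 and 4.12 CPM at 4 days, 0.783 and 0.584 CPM at 35 h, 1.31 and 2.85 CPM in LIM and 0.368 and 0.598 CPM in L2i (log2 fold 2.63 ± 0.66 SE, adjusted p = 0.0118). Sycp1, the transverse filament, had 0.126 and 0.196 CPM at 4 days, 0.913 and 0.649 CPM at 35 h, 0.689 and 2.14 CPM in LIM and 0.873 and 1.20 CPM in L2i (adjusted p = 0.0287). Sycp3, the partner of Sycp2, was higher in CGR8 than in R1 in every group, with 7.93 and 29.9 CPM at 4 days, 7.50 and 12.2 CPM at 35 h, 4.69 and 22.9 CPM in LIM and 5.29 and 16.6 CPM in L2i. Its exons overlap those of Chpt1 on the other strand over 660 bases, and the strand setting of the counting was not given, so its reads and those of Chpt1 may not be separated.

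Among the recombination and other testis genes, Dmc1, the meiotic recombinase, had 5.79 and 7.06 CPM at 4 days, 8.87 and 7.79 CPM at 35 h, 11.3 and 15.9 CPM in LIM and 2.30 and 3.32 CPM in L2i. Every library outside L2i was above both L2i libraries, and Dmc1 rose 2.30-fold at 4 days (log2 fold 1.20 ± 0.33 SE, adjusted p = 0.0159). Tex15, a partner of PIWI-directed silencing known from mice, had 1.64 and 1.83 CPM at 4 days, 10.3 and 12.5 CPM at 35 h, 7.70 and 8.14 CPM in LIM and 19.7 and 27.7 CPM in L2i. It went the other way, 13.6-fold down at 4 days (log2 fold -3.77 ± 0.29 SE, adjusted p = 2.96e-05). Tex14, a protein of the bridges that join germ cells, had 2.08 and 2.29 CPM at 4 days, 66.8 and 28.9 CPM at 35 h, 38.5 and 42.9 CPM in LIM and 68.9 and 50.3 CPM in L2i (log2 fold -4.77 ± 0.42 SE, adjusted p = 5.54e-05). Tex11, a meiotic crossover factor on the X chromosome, had 1.76 and 2.42 CPM at 4 days, 10.7 and 14.9 CPM at 35 h, 3.32 and 13.3 CPM in LIM and 12.3 and 12.5 CPM in L2i (adjusted p = 0.00709). Both genes were lowest in the 4-day libraries.

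Taf7l, a germ cell relative of a general transcription factor subunit, had 0.441 and 1.05 CPM at 4 days, 2.74 and 2.60 CPM at 35 h, 4.26 and 5.35 CPM in LIM and 4.09 and 3.12 CPM in L2i (adjusted p = 0.00571). Slc25a31, a testis ADP/ATP carrier, had 0.881 and 1.76 CPM at 4 days, 1.96 and 2.99 CPM at 35 h, 3.00 and 4.99 CPM in LIM and 3.49 and 4.98 CPM in L2i (adjusted p = 0.0262). Tex101, a surface protein of germ cells, fell by the test (adjusted p = 0.02) on 2 counts at 4 days against 41 in L2i, a ratio of 17.4 with a 95% counting interval of 4.51 to 148. It had 0.126 and 0 CPM at 4 days, 0.326 and 0.325 CPM at 35 h, 0.563 and 1.84 CPM in LIM and 0.643 and 1.79 CPM in L2i. These 3 genes were low in every group.

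Leaving out 1 library at a time, 17 of the 25 calls between LFAI at 4 days and L2i passed in all 8 refits. Sycp1 and Asz1 lost the call without any 1 of the 4 libraries compared, Asz1 also without R1 at 35 h. Smc1b lost it without either 4-day library, Tex11 without R1 at 4 days, Tex101 without L2i CGR8 or CGR8 at 4 days, and Slc25a31 without L2i CGR8 or R1 at 4 days. Sycp2 and Dmc1 lost it without CGR8 at 4 days or without L2i R1, and 3 rises were left without L2i R1.

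Per length of exon, which allows levels of different genes to be compared, Dazl was highest in L2i with a mean of 37.8 RPKM, followed by Syce2 with 32.3 and Tdrd12 with 28.9 RPKM. In LFAI at 4 days Syce2 led with 29.3 RPKM, followed by Sycp3 with 14.9 and Ddx4 with 4.97 RPKM. Over the 8 4-group libraries, 19 genes reached 1 CPM in all, 17 in some and 1 (Tdrd6) in none. The number reaching 1 CPM was 22 (R1) and 26 (CGR8) in LFAI at 4 days, 27 and 27 at 35 h, 29 and 34 in LIM and 28 and 31 in L2i. These counts were not made over all genes, so they describe the listed genes only.

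PRC1.6 is known to reach germline promoters through MAX and MGA, which bind the E-box CACGTG, and through E2F6, which binds sites with the core TTCCCGC, which was searched on both strands. RefSeq promoters (GRCm38.p6, from 250 bases before to 50 after the start) were given for 32 of the 37 genes, in 43 rows. The E-box stood in 44.2% of these promoters and in 7.15% of all 32851 promoters, and the E2F core in 23.3% and 4.60%. The members' promoters also held more CpG, with a median ratio of observed to expected of 0.71 against 0.38. Among promoters with a ratio of 0.6 or more, a limit chosen after the values were seen, the E-box stood in 56.7% of 30 and in 11.3% of all 11765, and the E2F core in 33.3% and 10.0%. A match is a description of letters, not a binding site.

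By gene, 7 of the 16 that fell at 4 days against L2i and have a promoter row held an E-box, as did 1 of the 5 that rose and 8 of the 11 not called. The promoters of the 2 genes with the largest fitted falls and the 2 with the largest rises are printed to show where these motifs stand, with motif bases in capitals, on the strand of the gene. Tdrd9 lies at chr12:111971309-111971608 (+), Dazl at chr17:50293571-50293870 (-), Tdrd1 at chr19:56825959-56826258 (+) and Sycp2 at chr2:178407609-178407908 (-).
Tdrd9: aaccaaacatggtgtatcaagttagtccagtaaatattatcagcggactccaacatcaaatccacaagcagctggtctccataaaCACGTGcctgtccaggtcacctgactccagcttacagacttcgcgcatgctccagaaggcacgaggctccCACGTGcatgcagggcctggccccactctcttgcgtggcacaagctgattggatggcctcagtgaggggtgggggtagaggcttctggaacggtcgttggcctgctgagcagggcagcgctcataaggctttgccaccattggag
Dazl: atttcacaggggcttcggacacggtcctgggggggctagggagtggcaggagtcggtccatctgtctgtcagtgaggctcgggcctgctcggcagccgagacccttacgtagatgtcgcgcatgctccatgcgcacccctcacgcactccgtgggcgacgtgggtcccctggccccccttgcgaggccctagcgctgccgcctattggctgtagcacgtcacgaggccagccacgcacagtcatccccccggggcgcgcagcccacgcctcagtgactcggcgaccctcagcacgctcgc
Tdrd1: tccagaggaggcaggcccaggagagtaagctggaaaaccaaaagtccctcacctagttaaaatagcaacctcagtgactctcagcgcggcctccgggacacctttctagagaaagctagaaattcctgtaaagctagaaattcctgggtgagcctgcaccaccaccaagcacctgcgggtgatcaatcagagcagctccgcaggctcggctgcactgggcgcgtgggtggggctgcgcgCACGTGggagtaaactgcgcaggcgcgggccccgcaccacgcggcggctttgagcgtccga
Sycp2: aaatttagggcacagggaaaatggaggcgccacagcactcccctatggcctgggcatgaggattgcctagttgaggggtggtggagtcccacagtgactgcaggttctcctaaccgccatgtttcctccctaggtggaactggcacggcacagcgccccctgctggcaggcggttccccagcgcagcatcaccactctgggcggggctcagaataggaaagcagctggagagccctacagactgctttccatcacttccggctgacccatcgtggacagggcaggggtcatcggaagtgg
Counted from the start, the E-boxes of Tdrd9 began at -165 and -95 and that of Tdrd1 at -11. Neither motif was in the windows of Dazl and Sycp2. An E-box thus stood in 1 printed promoter of a gene that fell and in 1 of a gene that rose. Tdrd9 was chosen by its fitted fold, which is no bound because it had no count at 4 days. Dazl had 28 CpG in its window, a ratio of 0.80, and Sycp2 had 10, a ratio of 0.36.

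At 35 h, 4 of the 36 tested genes were called against L2i. Between LFAI at 35 h and L2i, Dmc1 rose 2.98-fold (adjusted p = 0.0141), while Dazl fell 6.59-fold (adjusted p = 0.00466), Rec8 fell 3.04-fold (adjusted p = 0.00439) and Tex15 fell 2.07-fold (adjusted p = 0.0259). Of all tested genes 7.35% rose and 7.16% fell. Genes that were not called may also have moved. Brdt was 3.32-fold lower (adjusted p = 0.153) and Syce3 2.53-fold higher (adjusted p = 0.416) by the same edgeR test. Dmc1 lost the call without L2i R1 or without R1 at 35 h, and Tex15 lost it without L2i CGR8 or either 35 h library. Between 4 days and 35 h of LFAI 15 genes fell and 4 rose, where 19% of all genes fell and 17.7% rose. Those that rose were Tdrd1 (17.7-fold), Tdrd5 (6.71-fold), Tdrkh (4.87-fold) and Sycp2 (4.31-fold). The largest fold of a gene with counts in both groups was that of Hormad1, 89.1-fold lower at 4 days (adjusted p = 0.000185). Without either 35 h library, or without CGR8 at 4 days, Sycp2 was not called.

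Between LIM and L2i 4 genes rose and 4 fell, where 11.3% of all genes rose and 7.81% fell. Tdrd1 rose 9.87-fold (adjusted p = 0.00165), Dmc1 4.86-fold (adjusted p = 0.00239), Tdrd7 4.29-fold (adjusted p = 0.0311) and Ddx4 1.77-fold (adjusted p = 0.0399). Dazl fell 8.68-fold (adjusted p = 0.00223), Tex15 2.99-fold (adjusted p = 0.00404), Rec8 2.53-fold (adjusted p = 0.00755) and Stk31 2.33-fold (adjusted p = 0.007). In a fit blocked on line 7 fell, the added ones being Hormad1 (log2 fold -1.23, adjusted p = 0.02), Tdrd12 (-0.83, adjusted p = 0.0269) and Rnf17 (-0.68, adjusted p = 0.0487), and Mael (1.59, adjusted p = 0.0265) and Sycp2 (2.05, adjusted p = 0.0365) joined those that rose. Without L2i R1, L2i CGR8 or LIM CGR8, 2 rises were called, and without LIM CGR8 8 genes fell. Tdrd7 lost its call without any 1 of the 4 libraries compared, Ddx4 without each library but LIM R1, Stk31 without L2i R1 and Rec8 without LIM R1.

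The lines differed in level. In LIM, CGR8 was above R1 for 33 of the 37 genes, where it was above for 50.6% of 17664 genes with 10 or more counts in some library. CGR8 was also above R1 for 30 of the 37 genes in LFAI at 4 days (47.7% of all genes), for 18 at 35 h (49.2%) and for 22 in L2i (48.8%). At least 2-fold, CGR8 was above R1 for 17 genes in LIM (11.2% of all genes) and R1 above CGR8 for 0 (6.10%). The counts were 6 and 5 in LFAI at 4 days (6.62% and 9.05% of all genes). They were 1 and 1 at 35 h (10.3% and 7.86%) and 6 and 1 in L2i (10.9% and 9.12%). Smc1b in LIM, for example, had 43.6 CPM in CGR8 and 6.26 CPM in R1. With 1 library per line and group, these differences between the lines were not tested, and the lines also differ in passage.

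Set against LIM, LFAI at 4 days gave 22 falls and 1 rise, where 17.2% of all genes fell and 12.3% rose. The rise was Tdrd5, 4.55-fold (adjusted p = 0.00317). Among the falls was Mael, a piRNA factor in granules, with 3.21 and 3.92 CPM at 4 days, 6.26 and 6.62 CPM at 35 h, 6.57 and 24.0 CPM in LIM and 3.72 and 5.51 CPM in L2i (log2 fold -2.10 ± 0.55 SE, adjusted p = 0.0217). Mov10l1, the helicase that feeds RNA into the piRNA pathway, had 3.52 and 4.90 CPM at 4 days, 6.78 and 5.00 CPM at 35 h, 11.2 and 13.0 CPM in LIM and 5.88 and 7.04 CPM in L2i (log2 fold -1.52 ± 0.32 SE, adjusted p = 0.00839). Brdt, a testis bromodomain protein, had 0.755 and 0.261 CPM at 4 days, 0.457 and 0.584 CPM at 35 h, 2.25 and 7.25 CPM in LIM and 1.52 and 1.99 CPM in L2i (log2 fold -3.20 ± 0.73 SE, adjusted p = 0.0124). For Mov10l1 and Brdt both LIM libraries were above all others, while Mael in LIM R1 overlapped the 35 h libraries. Mael lost its call without LIM CGR8 or either 4-day library, Brdt without LIM CGR8 or CGR8 at 4 days, and Mov10l1 without R1 at 4 days. Without LIM CGR8, or without either 4-day library, 13 falls were called. A fit blocked on line added Rec8 to the falls (log2 fold -0.73, adjusted p = 0.0239). Between LFAI at 35 h and LIM, Tdrd1 fell 9.63-fold (adjusted p = 0.00669) and Brdt 9.02-fold (adjusted p = 0.0386), where 4.46% of all genes fell. None rose by edgeR, where 1.92% of all genes did; 2 were higher at an unadjusted p under 0.05, and DESeq2 called 1 (Tdrd12). Tdrd1 was called in each of the 8 fits that left out 1 library, and Brdt was not called without L2i CGR8, LIM CGR8 or either 35 h library.

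In the R1 time course, the LFAI cells of day 4 looked different. Of 34 genes above 1 CPM in some library, 16 were at least 2-fold higher and 5 at least 2-fold lower on LFAI day 4 than on day 0 (log2 CPM with a prior count of 2), where 16.3% of all genes were higher and 13.5% lower. With 1 library per point there is no test. Tdrd1, Sycp2 and Syce3 passed the 1 CPM limit only through LFAI libraries where they were high. These counts therefore describe the genes and support no statement about the list. On LFAI day 2 it was 11 higher and 5 lower, where 10.7% of all genes were higher and 10.7% lower. On day 3 it was 19 higher and 3 lower, where 14.4% of all genes were higher and 13.1% lower. The library labelled LFAI day 1 had 0 higher and 2 lower (5.10% and 3.88% of all genes), and the counts for day 4 were the same without it. LIM day 1 had 0 higher and 5 lower (5.39% and 4.34% of all genes). Day 2 of LIM had 2 higher and 3 lower (6.75% and 5.04%), and day 3 had 2 higher and 7 lower (7.3% and 7.12%). In LIM on day 4, 3 genes were higher and 4 lower, where 8.18% of all genes were higher and 7.22% lower. The summed level was 811 CPM on day 0, 674 CPM in the library labelled LFAI day 1, then 978, 1086 and 833 CPM on LFAI days 2, 3 and 4. In LIM it was 638, 740, 673 and 704 CPM on days 1 to 4. The 5 highest genes made up 64.3% of the sum on day 0 and 49.2% on LFAI day 4. The median level of all 37 genes was 6.43 CPM on day 0 and 7.96, 19.5 and 15.2 CPM on LFAI days 2 to 4.

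**Figure D3:**
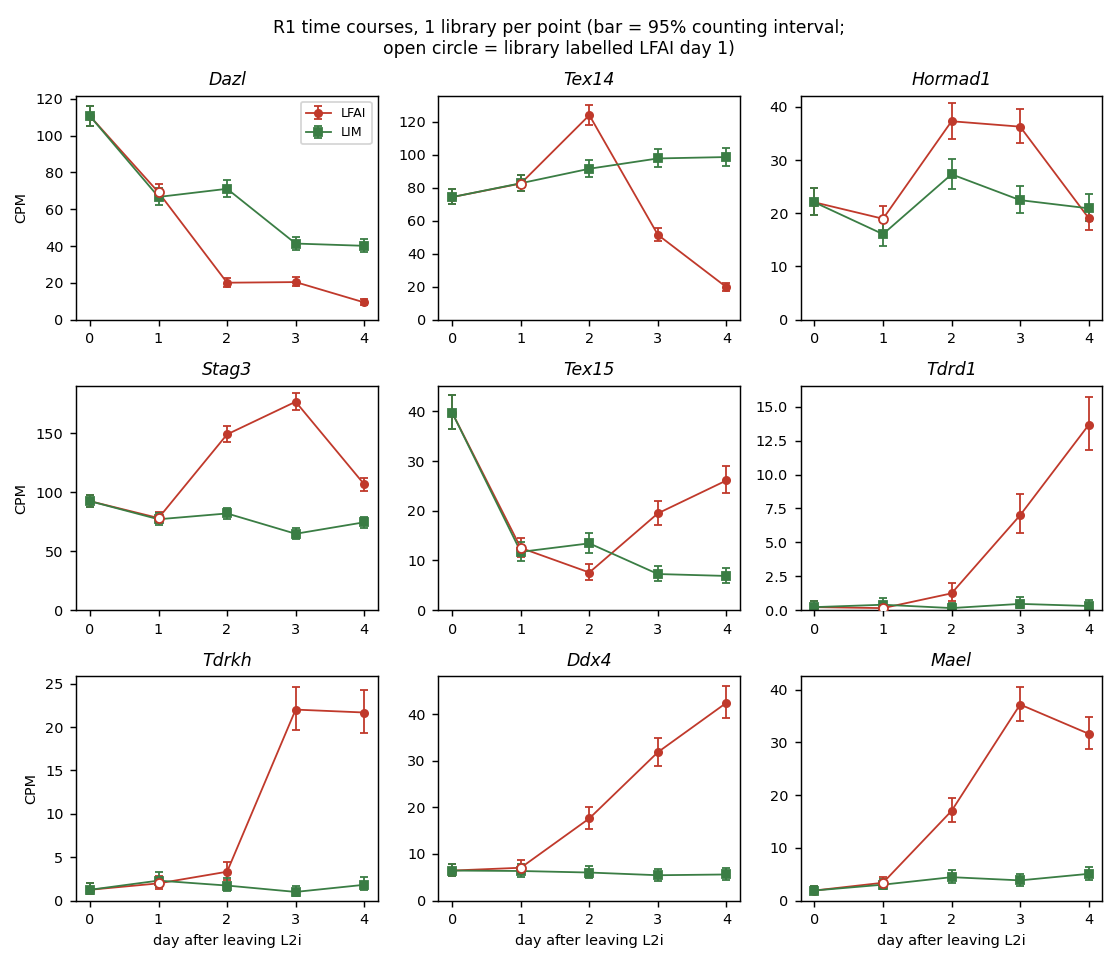
CPM of 9 genes in the R1 time courses by day after leaving L2i, in LFAI (red circles) and LIM (green squares), with 95% counting intervals and 1 library per point; the open circle is the library labelled LFAI day 1. Dazl is lowest on LFAI day 4 (9.37 CPM), Stag3 is highest on day 3 (177 CPM), and Tdrd1 and Ddx4 are highest on day 4.

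Dazl was lower on each of LFAI days 2 to 4, with 111 CPM on day 0 and 20.1, 20.4 and 9.37 CPM on days 2, 3 and 4. In LIM it had 66.7, 71.1, 41.4 and 40.1 CPM on days 1 to 4. Both media were thus below day 0, LFAI further. Hormad2 had 20.9 CPM on day 0 and 21.5, 13.3 and 5.65 CPM on LFAI days 2 to 4, while LIM held 21.7, 29.2, 31.7 and 35.3 CPM on days 1 to 4. Tex14 had 74.2 CPM on day 0, then 124, 51.4 and 19.7 CPM on LFAI days 2 to 4, and 82.6, 91.4, 97.6 and 98.5 CPM in LIM. Hormad2 and Tex14 thus parted between the media by day 4. Tdrd9 (0.572 CPM on LFAI day 4 and 2.78 on day 0) and Brdt (3.51 and 8.40 CPM) were the other 2 lower genes.

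Stag3, Hormad1 and Smc1b were highest in the middle of the LFAI course. Stag3 had 92.4 CPM on day 0 and 149, 177 and 107 CPM on LFAI days 2, 3 and 4. Hormad1 had 22.1 CPM on day 0 and 37.3, 36.3 and 19.1 CPM. Smc1b had 15.9 CPM on day 0 and 33.6, 32.8 and 19.1 CPM. All 3 were back near their day 0 level on day 4. Tdrd12 (89.8 CPM on day 0 and 101, 80.3 and 48.9 CPM), Rnf17 (155 CPM on day 0 and 175, 186 and 122 CPM) and Stk31 (24.7 CPM on day 0 and 26.6, 24.2 and 15.0 CPM) moved less on days 2 and 3. These latter genes ended below day 0, by less than 2-fold. Of the 34 genes, 5 were highest on day 0, 6 on LFAI day 2, 13 on day 3 and 9 on day 4. The remaining gene, Hormad2, was highest in the library labelled LFAI day 1. The same tally was not made over all genes, so it describes these genes only.

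The genes that gained most were Tdrd1, Sycp2, Tdrkh and Mael. Tdrd1 had 0.219 CPM on day 0 (3 counts) and 1.24, 7.00 and 13.7 CPM on LFAI days 2 to 4, a day 4 ratio of 62.3 with a 95% counting interval of 21.01 to 305. Sycp2 had 0.292 CPM on day 0 and 0.773, 9.45 and 8.23 CPM. Tdrkh had 1.24 CPM on day 0 and 3.32, 22.0 and 21.7 CPM. All 3 were past 2-fold on LFAI day 2, Tdrd1 on 16 counts against 3 and Sycp2 on 10 against 4, and higher again on day 3. Mael had 1.90 CPM on day 0 and 17.0, 37.2 and 31.6 CPM, and Ddx4 had 6.43 CPM on day 0 and 17.6, 31.8 and 42.4 CPM. Dmc1 had 2.85 CPM on day 0 and 15.1, 22.4 and 22.1 CPM. These 3 were also past 2-fold on day 2, on more counts. Tdrd5, Tdrd7, Piwil2, Sycp1, Sycp3, Syce3, Mov10l1, Tex11, Taf7l and Slc25a31 made up the rest of the 16, with day 4 log2 differences of 1.31 (Piwil2) to 2.91 (Syce3, 21 counts against 1).

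Tex15 and Brdt were at least 2-fold lower on LIM day 1 than on day 0. Tex15 had 39.8 CPM on day 0, 11.7 CPM on LIM day 1 and 12.5 CPM in the library labelled LFAI day 1. It then stayed low in LIM, with 13.4, 7.26 and 6.88 CPM, while LFAI had 7.57, 19.5 and 26.1 CPM on days 2 to 4. Rec8 also dipped, with 23.9 CPM on day 0 and 7.96, 21.9 and 29.0 CPM on LFAI days 2 to 4, against 20.0, 16.4, 10.0 and 11.9 CPM in LIM. Brdt had 8.40 CPM on day 0, 1.98 CPM on LIM day 1 and 2.42 CPM on LIM day 4. The higher genes on LIM day 4 were Dmc1 (10.4 CPM, against 2.85 CPM on day 0), Mael (5.06 and 1.90 CPM) and Syce3 (4 counts against 1). Tdrd1, which was 4.28 and 5.26 CPM after several passages in LIM, was at 0.302 CPM on LIM day 4. Dazl at 40.1 CPM on LIM day 4 was above both 4-group LIM libraries. The sets were normalized separately, so levels are set side by side only as a description.

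Both sets had R1 cells in LFAI for 4 days, after 3 passages in 2i, but the L2i cells they are set against had 10 passages in 2i in the 4-group set and 5 on day 0 of the time course. Of the 20 genes called lower in the 4-group comparison, 18 passed the time-course filter, and 4 of these were at least 2-fold lower on day 4 (Dazl, Hormad2, Tdrd9 and Tex14) while 5 were at least 2-fold higher (Piwil2, Sycp1, Tex11, Taf7l and Slc25a31). All 5 genes called higher were also at least 2-fold higher in the time course, but Tdrd1 and Sycp2 passed its filter only through LFAI libraries. By the R1 differences alone, 5 of the 34 genes (14.7%) were at least 2-fold lower in the 4-group set and 2-fold higher in the time course, where 0.852% of 14784 genes were. In both sets 4 (11.8%) were at least 2-fold lower, where 10.3% of all genes were. Across the 34 genes the log2 differences of R1 in both sets had a Spearman correlation of 0.80 (Pearson 0.81), given as a description, but 33 of 34 lay higher in the time course, by a median of 2.41. Over 14784 genes 50.6% lay higher there, by a median of 0.01, with a Pearson correlation of 0.79. Brdt was the exception. For the LIM pair of R1 cells, 21 of 34 genes lay higher in the time course, by a median of 0.32, where 49.2% of all genes did, by a median of -0.01.

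**Figure D4:**
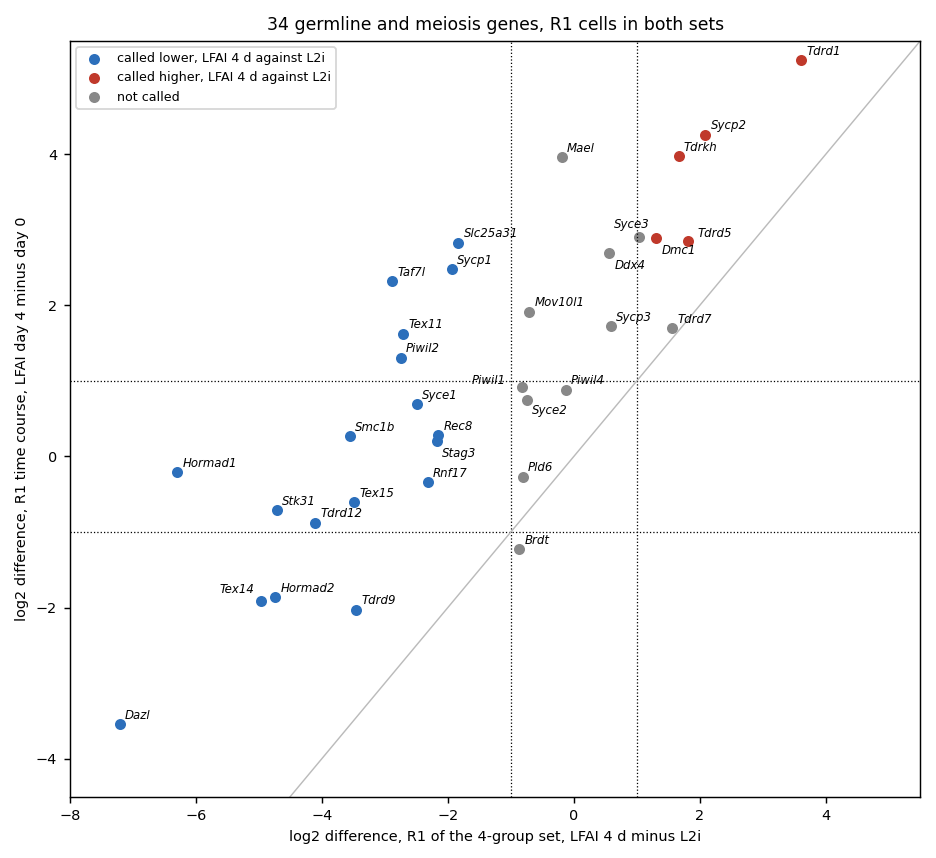
Log2 differences of 34 genes in R1 cells: the time course (LFAI day 4 minus day 0, vertical) against the 4-group set (LFAI at 4 days minus L2i, horizontal), coloured by the 4-group call; dotted lines mark 2-fold and the grey line equal differences. Every point but Brdt lies above the grey line.

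Hormad1 shows the gap: 0.126 CPM in R1 LFAI at 4 days against 19.7 CPM in R1 L2i, and 19.1 CPM on LFAI day 4 against 22.1 CPM on day 0. The sets differ in coating, in sequencing protocol, in the passages of their L2i cells in 2i and in the passage number of the R1 cells (26 for the 4-group LFAI cells, 32 for the time course), which cannot be told apart. Some genes outside the list also differed at 4 days of LFAI, and they are given as examples only. Zfp42, a naive marker looked at after the values were seen, was at 48.4 CPM on LFAI day 4 of the time course. It was at 12.5 and 10.6 CPM in the 4-group libraries. Dnmt3l, the DNA methylation cofactor, was at 173 CPM on that day, against 10.7 and 10.5 CPM. Tfap2c, a primordial germ cell factor, was instead low in both, at 1.43 CPM on that day and 1.20 and 0.523 CPM.

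Markers of 2-cell-like cells, a rare state that also transcribes genes silent in most stem cells, were summed beside the germline genes. The summed level of 10 markers was 1.20 (R1) and 0.980 (CGR8) CPM in LFAI at 4 days, 12.9 and 129 CPM at 35 h, 6.82 and 17.2 CPM in LIM and 13.7 and 88.0 CPM in L2i. All 10 fell between LFAI at 4 days and L2i, where 23.3% of all tested genes fell, and 5 of the 10 were at 0 in each 4-day library. Those without counts at 4 days passed the filter on low counts through other groups, so this count describes the markers only. None of the 10 was called between LFAI at 4 days and LIM, where 17.2% of all genes fell. In the time course the sum was 41.6 CPM on day 0, then 54.9, 89.4 and 197 CPM on LFAI days 2 to 4 and 25.3, 18.9, 8.03 and 9.45 CPM on LIM days 1 to 4. The germline sums were 196 (R1) and 262 (CGR8) CPM in LFAI at 4 days and 706 and 623 CPM at 35 h. They were 466 and 773 CPM in LIM and 864 and 840 CPM in L2i. On time-course day 0 the germline sum was 811 CPM, then 978, 1086 and 833 CPM on LFAI days 2 to 4. The part of 2-cell-like cells in the levels of the germline genes was not tested. Primitive endoderm markers summed to at most 20.3 CPM, trophoblast markers to at most 39.0 CPM and fibroblast markers to at most 28.2 CPM in any library.

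Other germline lists, chosen like the main list with earlier results of these data known, also held genes that fell at 4 days. Of 22 tested further meiosis genes 7 fell and 2 rose between LFAI at 4 days and L2i (median log2 fold -0.61), where 23.3% of all genes fell and 21.5% rose. Rec114, needed for meiotic breaks, had 0.566 and 0.980 CPM in LFAI at 4 days, 43.4 and 44.8 CPM at 35 h, 45.3 and 58.7 CPM in LIM and 42.7 and 38.5 CPM in L2i (log2 fold -5.71 ± 0.28 SE). Stra8, which launches the meiotic program on retinoic acid, had no count at 4 days, 0.261 and 0.649 CPM at 35 h, 0.376 and 4.10 CPM in LIM and 15.4 and 35.7 CPM in L2i, at least 246-fold lower at 4 days. Its levels were already low at 35 h and in LIM. Of 7 primordial germ cell factors 6 fell and none rose (median -6.83), among them Tfap2c, with 1.20 and 0.523 CPM at 4 days against 97.7 and 99.9 CPM in L2i. Of 6 further piRNA and granule genes 3 fell and 2 rose. Fkbp6 had 0.566 and 2.35 CPM at 4 days against 80.8 and 67.3 CPM in L2i, and Ddx25, a testis helicase, had 17.6 and 17.8 CPM against 5.52 and 4.85 CPM.

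Genes for DNA methylation and its removal, and for histone silencing, were examined next. Dnmt3b, a de novo DNA methyltransferase, had 1998 and 2175 CPM in LFAI at 4 days, 1373 and 730 CPM at 35 h, 809 and 961 CPM in LIM and 109 and 103 CPM in L2i (log2 fold at 4 days 4.30 ± 0.29 SE, adjusted p = 1.53e-05). The 4-group order of Dnmt3b was thus LFAI at 4 days above the other groups and L2i below all. In the time course it reached 2183 CPM on LFAI day 4, a like level to the 4-group cells. Of the 5 genes that write or maintain DNA methylation, 2 rose (Dnmt3a and Dnmt3b) and 3 fell (Dnmt1, Dnmt3l and Uhrf1) at 4 days against L2i. Of the 3 Tet genes, whose products oxidize methylcytosine in its removal, Tet3 rose and Tet1 and Tet2 fell. In LIM against L2i 4 rose (Dnmt3b, Dnmt3a, Dnmt3l and Tet3) and Tet2 fell, where 11.3% of all tested genes rose and 7.81% fell. Of the 20 genes for PRC1.6 and histone H3K9 silencing 4 rose and 7 fell at 4 days, where 21.5% of all genes rose and 23.3% fell, among them Ehmt1 (160 and 172 CPM, against 70.7 and 86.1 CPM in L2i), which rose, and Wdr5 and Setdb1, which fell. Of the PRC1.6 parts that bind DNA, named here after their values were seen, E2f6 rose (68.2 and 61.8 CPM at 4 days, against 29.3 and 38.4 CPM in L2i, log2 fold 0.94 ± 0.18 SE). Mga fell (258 and 233 CPM at 4 days, against 375 and 442 CPM in L2i, log2 fold -0.73 ± 0.13 SE), and so did Max (77.6 and 79.5 CPM, against 109 and 106 CPM, log2 fold -0.45 ± 0.12 SE).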

How the data were processed

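Gene counts were deposited by the authors, 1 file per library. Per the submitters' processing notes the tools were HISAT2 2.0.4, HTSeq 0.6.1 and DESeq2 1.10.1 with GRCm38 (mm10), and per the labels' protocols the libraries were stranded TruSeq mRNA. The strand setting of the counting was not given in the sources used here. Rows that name no gene held 47.69% to 51.93% of reads per library and were left out. Genes were named through GENCODE M21. The 4-group and time-course libraries were normalized separately (TMM). Comparisons used edgeR 4.0.16 (R 4.3.3), the quasi-likelihood test on group means of all 8 libraries with 4 residual degrees of freedom, after edgeR's filter on low counts, with Benjamini-Hochberg adjustment over 15525 genes and a threshold of 0.05. CPM carries no prior count. RPKM divides it by the union exon length. Time courses have no replicates: a step is 2-fold in log2 CPM with a prior count of 2, and intervals cover counting error only. The replicate name is the cell line, so it pairs samples: residuals of the same line correlated between groups at 0.0472 to 0.379. Nothing says that libraries came from several cultures of a line, so p-values measure the spread between lines. Each gene of the list may be named; of other lists up to 4 genes with the smallest p between LFAI at 4 days and L2i, and repressors called in LIM. The members and lists were chosen with earlier results of these data known. The edgeR step was tested on simulated counts. Alternatives were DESeq2 1.42.0, its size factors, no filter, the line as a block, the compared libraries alone and leaving out each library.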

Additional observations from a re-analysis of the deposited data

Results flagged for a closer look

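A few low genes moved in opposite directions in the lines, and the difference between the lines was not tested. The log2 difference of Asz1 between LFAI at 35 h and LIM was 1.64 in R1 and -1.14 in CGR8. That of Syce3 was 1.35 in R1 and -1.85 in CGR8. The log2 difference of Piwil4 between LFAI at 4 days and LIM was 1.01 in R1 and -1.11 in CGR8.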

How the results depend on the processing

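Of the 81 calls of listed genes over the 6 comparisons, none reversed under the alternatives that gave a value. With the 4 compared libraries alone 77 had one: 73 passed, 4 did not, and Tdrd9 and Tex101 could not be fitted in 2 comparisons each. All 81 passed with DESeq2 size factors, with the line as a replicate block and without a filter, and 79 passed by DESeq2. Between LIM and L2i, without a filter 9 genes rose and 7 fell, and with the line as a replicate block 7 fell; leaving out 1 library gave 2 to 5 rises and 3 to 8 falls. Leaving out 1 library gave 0 to 1 rises between LFAI at 35 h and L2i, 3 to 5 rises between LFAI at 4 days and L2i, and 13 to 22 falls between LFAI at 4 days and LIM. Between LFAI at 35 h and LIM, rises were 1 without a filter, 1 by DESeq2 and 0 to 3 leaving out 1 library. Falls there were 6 without a filter, 4 by DESeq2, 1 with the 4 compared libraries alone and 1 to 4 leaving out 1 library; the cause was not tested. The counts for day 4 of the time courses stayed within 1.5 times under the alternatives run, including 1 chosen after seeing the data, which left aside the library labelled LFAI day 1. Genes with few counts (Asz1, Tex101, Tdrd9, Sycp1) are limited by depth.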
